A study of Arabidopsis thaliana with 24 samples.

Results

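Of the 33977 gene identifiers counted in this seedling experiment, 58 were counted in the *hy5-215* mutant and were at or next to 0 in the wild type, Col-0. A gene belonged to the set if it had at most 3 counts in each of the 12 Col-0 libraries and a mean of at least 5 counts over the 12 *hy5-215* libraries. The members were thus chosen by their raw counts in the genotype contrast, and their difference between the genotypes is given only as a description, without a test. Over all libraries together the 58 genes held 15549 of 34008506 counts in *hy5-215*, or 457 CPM (counts scaled to a library total of 1000000), and 285 of 28938841 counts in Col-0, or 9.85 CPM. The median total over the 12 Col-0 libraries was 3 counts per gene, 7 genes were at 0 in all of them, and the highest total was 18 counts, for *OFP9*. The reverse rule, at most 3 counts in each *hy5-215* library and a mean of at least 5 in Col-0, found 6 genes.

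The libraries came from *Arabidopsis thaliana* seedlings of the Col-0 ecotype, either wild type or carrying *hy5-215*, a single mutant allele of *HY5*. Seedlings had grown for 5 days at 22 °C in continuous white light on sucrose-free MS medium and were then kept at 22 °C or moved to 28 °C for 4 h, still in the light. The shoot, called hypocotyl in the sample labels and hypocotyl with cotyledons in the study's text, and the root were collected separately. This gave 8 groups of 3 libraries, which the methods call independent biological replicates. The genotype was taken from the sample titles, because the labels also hold a genotype field that follows the organ, with WT on all shoots and hy5 on all roots, mutant or not. The design text gives 24 h at the test temperature where the sample labels give 4 h, and the methods give the seedlings as 1 day older.

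HY5 is a bZIP transcription factor of light signalling that binds promoter elements with an ACGT core. Many plant genes are silent in seedlings. Some of these belong to the seed: storage globulins and albumins, oil body proteins and their companions are transcribed during embryo maturation, under B3 and bZIP factors that read CATGCA and ACGT elements, and are shut down as the seedling establishes. Others lie in the repeat-rich chromatin around the centromeres, among pseudogenes and transposon remnants that DNA methylation and repressive histone marks keep quiet. Among the 58 were seed storage and oil body genes, and genes with many annotated pseudogenes nearby. DNA methylation and histone marks were not measured here.

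The library total was between 1212281 and 2824576 counts in Col-0 and between 2066416 and 3781032 counts in *hy5-215*. The shallowest group was the Col-0 root at 22 °C, with 1212281 to 1828946 counts, so a limit of 3 counts was looser there. When counts were first scaled to the median library total, 37 genes met the rule, all of them among the 58. *HY5* itself had 16.5 CPM in the mutant root at 22 °C against 62.9 in Col-0 and 11.8 against 60.1 at 28 °C. These differences were -1.92 ± 0.21 (SE) and -2.35 ± 0.18 on the log2 scale (adjusted p = 3.75e-07 and 3.95e-10, edgeR quasi-likelihood test), while in the shoot they were -0.53 (adjusted p = 0.0513) and -0.57 (adjusted p = 0.213). Summed over 6 shoot marker genes, the shoot libraries held 29400 to 51700 CPM and the root libraries 456 to 1080. Summed over 7 root marker genes, the root libraries held 243 to 706 and the shoot libraries 19.1 to 61.1, with *NRT2.1* at or near 0 in both organs.

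One group held libraries that stood apart. In the *hy5-215* root at 22 °C, 37 genes had 0 counts in replicate 1 and at least 10 counts in both replicate 2 and replicate 3. In each of the other 23 ways of setting 1 library against the other two of its group, between 0 and 3 genes did so. Of the 37 genes, 12 were members, and 18 had at most 3 counts in each Col-0 library. The others included *OLEO2*, a further oleosin with 0, 49 and 104 counts in replicates 1, 2 and 3, and *M17*, a late embryogenesis abundant gene with 0, 119 and 185. A list of 6 seed maturation markers, of which 3 (*CRA1*, *CRU3* and *OLEO1*) are members, summed to 0, 101 and 214 CPM in the same 3 libraries and to at most 2.35 in any Col-0 library. Nearly all of this sum came from the 3 members, which the rule had chosen by these counts. The 3 other markers, *SESA1*, *SESA3* and *CRB*, held 0, 16 and 10 counts together in the 3 libraries, with *CRB* at 0 in each. Without replicates 2 and 3 of this group, 40 of the 58 genes still met the rule. The 18 that no longer did were 10 of those 12 members and 8 further ones.

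The members fell into 3 sets, drawn up after their counts had been seen and used here for description. The first holds 21 genes with more than 3 counts in every *hy5-215* library, called steady members below. The second holds the 12 genes at 0 in replicate 1 and at 10 or more counts in replicates 2 and 3 of the mutant root at 22 °C. The third holds the remaining 25, mostly low and uneven. The heat map of counts shows all 58 in every library.

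**Figure D1:**
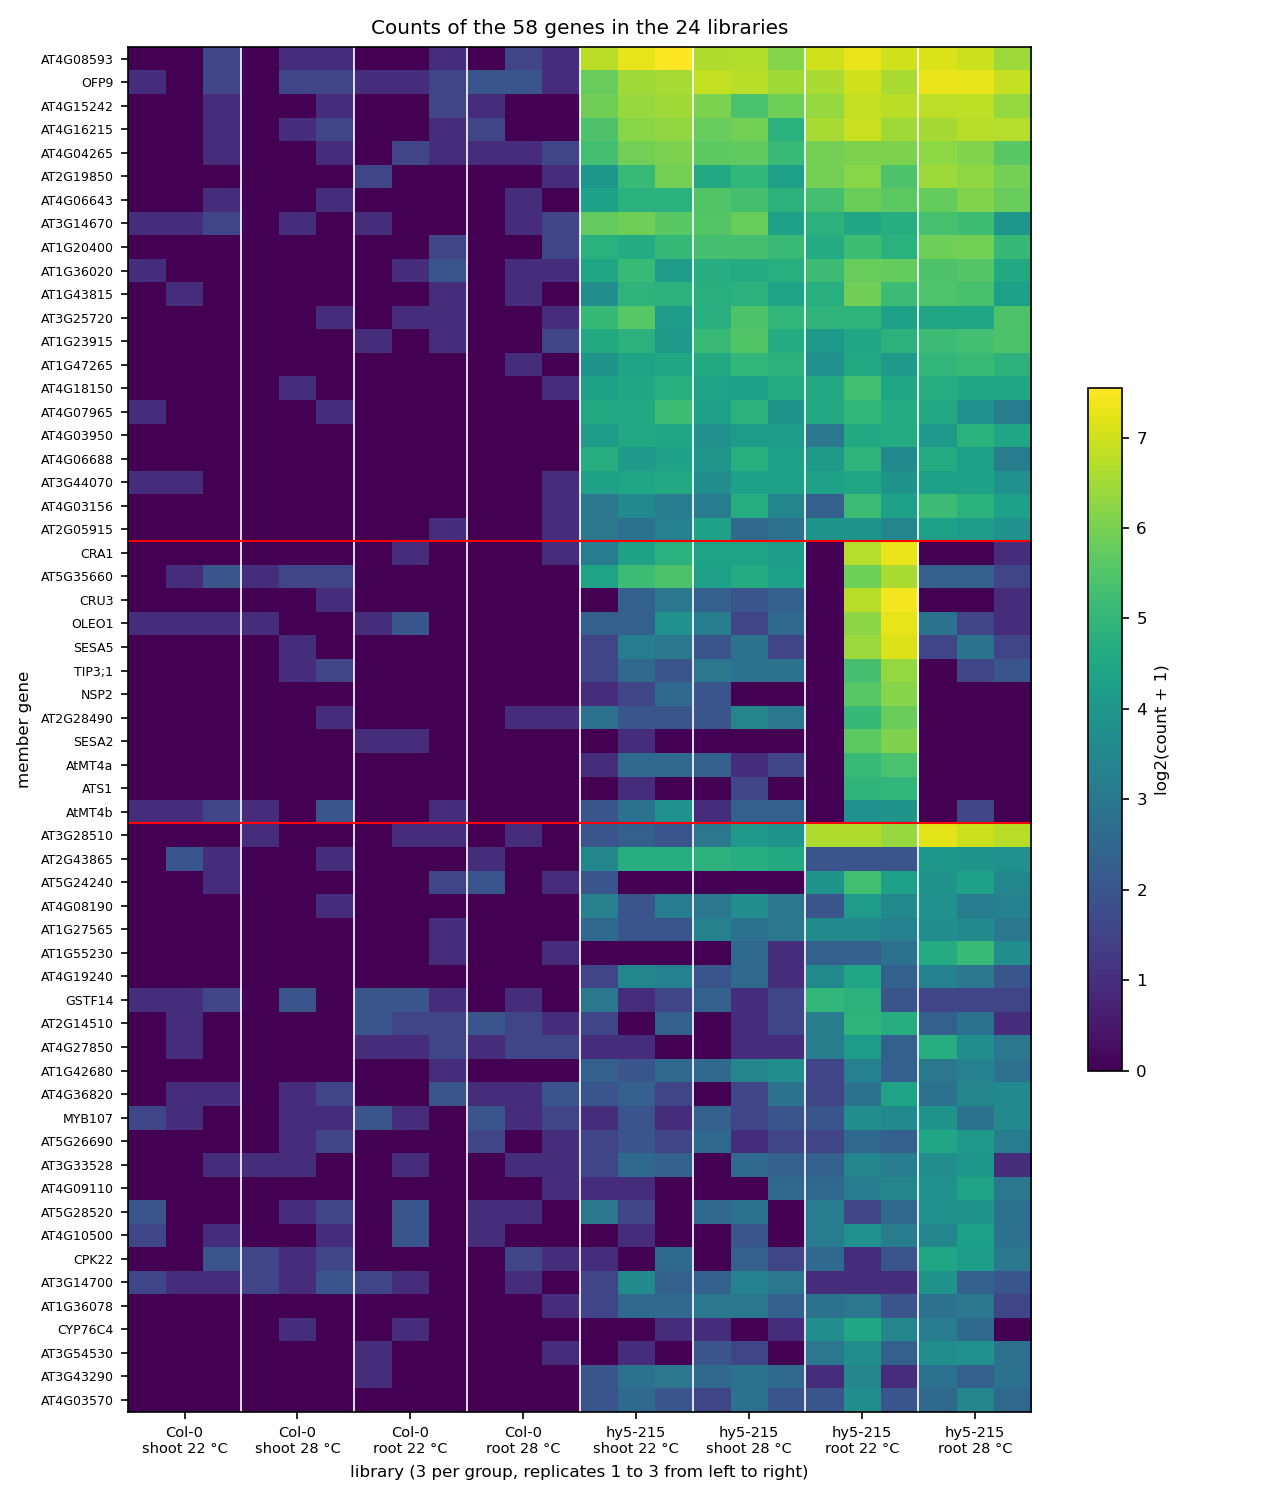
Counts of the 58 members (rows) in the 24 libraries (columns, 3 per group) as log2(count + 1). The red lines separate the 21 steady members (top), the 12 members at 0 in the first root library at 22 °C (middle) and the 25 others (bottom); no Col-0 library exceeds 3 counts for any member, by the rule.

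Sequences of the 250 bases before the annotated start are shown for 6 members, 4 of the second set and 2 of the other sets, because the sets of members described below differed in motif content. They are from RefSeq, build TAIR10.1, whose nuclear chromosomes are those of TAIR10, and are written 5′ to 3′ on the strand of the gene. Capitals mark ACGT, the core bound by HY5 and other bZIP factors, and CATGCA or its reverse complement TGCATG, the core of the RY element bound by B3 factors of seed maturation. The windows are chr5:17758337-17758586 (minus strand) for *CRA1*, chr4:14087306-14087555 (plus) for *CRU3*, chr5:22239188-22239437 (minus) for *SESA5*, chr4:12900180-12900429 (plus) for *OLEO1*, chr2:8568319-8568568 (plus) for AT2G19850 and chr3:10685220-10685469 (plus) for AT3G28510.
CRA1: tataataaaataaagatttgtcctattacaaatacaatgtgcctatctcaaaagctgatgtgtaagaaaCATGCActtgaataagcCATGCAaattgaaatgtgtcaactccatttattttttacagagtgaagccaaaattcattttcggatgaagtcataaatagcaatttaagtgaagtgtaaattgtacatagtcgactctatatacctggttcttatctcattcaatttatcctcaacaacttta
CRU3: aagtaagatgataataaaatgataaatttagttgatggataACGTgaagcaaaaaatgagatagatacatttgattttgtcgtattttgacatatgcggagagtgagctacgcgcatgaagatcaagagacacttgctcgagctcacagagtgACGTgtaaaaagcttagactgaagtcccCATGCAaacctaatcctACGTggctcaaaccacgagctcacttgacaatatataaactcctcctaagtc
SESA5: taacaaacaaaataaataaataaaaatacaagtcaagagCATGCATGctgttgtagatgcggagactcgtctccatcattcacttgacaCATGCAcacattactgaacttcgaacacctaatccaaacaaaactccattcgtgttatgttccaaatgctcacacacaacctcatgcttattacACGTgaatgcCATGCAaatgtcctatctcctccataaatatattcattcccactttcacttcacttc
OLEO1: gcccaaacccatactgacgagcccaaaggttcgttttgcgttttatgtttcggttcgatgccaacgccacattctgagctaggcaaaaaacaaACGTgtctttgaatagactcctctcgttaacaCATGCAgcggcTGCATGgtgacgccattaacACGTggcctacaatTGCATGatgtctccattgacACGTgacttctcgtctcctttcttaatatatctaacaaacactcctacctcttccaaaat
AT2G19850: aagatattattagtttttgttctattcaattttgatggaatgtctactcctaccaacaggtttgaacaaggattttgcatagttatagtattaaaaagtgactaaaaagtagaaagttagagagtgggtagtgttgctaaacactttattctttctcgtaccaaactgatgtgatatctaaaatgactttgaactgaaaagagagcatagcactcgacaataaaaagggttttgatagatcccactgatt
AT3G28510: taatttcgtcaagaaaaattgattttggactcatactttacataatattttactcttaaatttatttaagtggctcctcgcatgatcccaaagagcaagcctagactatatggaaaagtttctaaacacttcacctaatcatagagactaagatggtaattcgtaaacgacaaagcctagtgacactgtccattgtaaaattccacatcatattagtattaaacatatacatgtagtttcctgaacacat

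The first 4 windows held 2, 1, 4 and 3 copies of the RY core and 0, 3, 1 and 3 of ACGT in the order printed. The last 2 windows held neither motif. The windows shown make the sets look more distinct than they were. In the second set AT5G35660, *NSP2*, *AtMT4a* and *AtMT4b*, which are not shown, had 0 copies of the RY core, and AT5G35660 had 5 of ACGT. Over all 32546 annotated genes with such a window, 42.8% held ACGT and 8.77% held CATGCA on either strand. Among the 58 members these shares were 39.7% (23 genes) and 17.2% (10 genes). The steady members held ACGT in 4 of 21 windows (19%) and CATGCA in 1 (4.76%). The 12 members of the second set held ACGT in 10 windows (83.3%) and CATGCA in 8 (66.7%), with CACGTG, the G-box that contains ACGT, in 5 (41.7%) against 5.9% of all genes. Such a match is a run of letters in a window, counted without a test, and a window without one says nothing about what binds there.

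The steady members were led by genes of chromosome 4. AT4G08593, an uncharacterized gene at chr4:5469345-5470466, was the most abundant of the 58. Its counts in the mutant shoot were 108, 154 and 186 at 22 °C and 100, 102 and 71 at 28 °C, and in the mutant root 126, 160 and 128 at 22 °C and 142, 125 and 86 at 28 °C. All 12 values were 71 or higher, where Col-0 had a total of 8 counts over 12 libraries. In CPM this was 48.3 ± 13.0 (SD, n = 3) and 30.7 ± 3.97 in the shoot and 54.9 ± 0.723 and 42.8 ± 2.95 in the root, in the order of 22 and 28 °C. Relative to the bulk of genes the root was not higher. It was lower than the shoot at 22 °C, at -0.49 ± 0.15 (SE, log2, adjusted p = 0.00552, edgeR), short of a 2-fold difference. At 28 °C the difference was -0.18 ± 0.15 (adjusted p = 0.31), and neither was called.

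*OFP9* (AT4G04030, chr4:1936653-1937972) encodes an OVATE family protein, annotated as a transcription repressor. It had 54, 87 and 93 counts in the mutant shoot at 22 °C, 114, 107 and 88 at 28 °C, 95, 126 and 95 in the root at 22 °C and 160, 152 and 116 at 28 °C. The root at 28 °C, with 52.5 ± 3.41 CPM (SD, n = 3), was the highest group and the shoot at 22 °C, with 25.1 ± 5.85, the lowest. Relative to the bulk of genes, *OFP9* differed between root and shoot by only 0.06 (log2) at 22 °C and -0.08 at 28 °C. AT2G19850 (chr2:8568569-8569890), a gene with the same annotation on chromosome 2, matched the 3′ end of *OFP9* at 96.6% over 298 bases. Its counts were 15, 34 and 62 in the mutant shoot at 22 °C, 23, 31 and 18 at 28 °C, 62, 73 and 42 in the root at 22 °C and 86, 77 and 62 at 28 °C. A further copy, AT3G54730, matched the last 300 bases of *OFP9* at 99.7% and held 7 counts in all Col-0 libraries together and 10 in all *hy5-215* libraries. How reads that fit several places were counted is not given in the sources used here, so the split between these copies is uncertain.

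AT4G15242 (chr4:8705787-8706997) was the only member annotated as non-coding RNA. It had 59, 82 and 88 counts in the mutant shoot at 22 °C, 65, 41 and 58 at 28 °C, 80, 114 and 108 in the root at 22 °C and 109, 113 and 80 at 28 °C. Over 484 bases it overlaps the protein-coding AT4G15245 on the opposite strand, which held 0 counts in Col-0 and 6 in *hy5-215*. AT4G16215 (chr4:9179244-9179833), uncharacterized, had 42, 73 and 79 and then 54, 61 and 27 counts in the shoot and 94, 119 and 87 and then 92, 106 and 103 in the root. AT4G04265 (chr4:2057570-2058299), annotated as a transposase of the PttA/En/Spm family, had 38, 60 and 66 and then 50, 51 and 33 in the shoot and 62, 66 and 65 and then 76, 69 and 48 in the root. For AT4G15242 and AT4G16215 every mutant root library was above every shoot library of the same temperature in CPM, and for AT4G04265 this held at 28 °C only. Relative to the bulk of genes none of the 3 was called between the organs. AT4G16215 was higher in the root at 28 °C by 0.57 ± 0.21 (SE, log2, adjusted p = 0.0158, edgeR), short of a 2-fold difference.

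**Figure D2:**
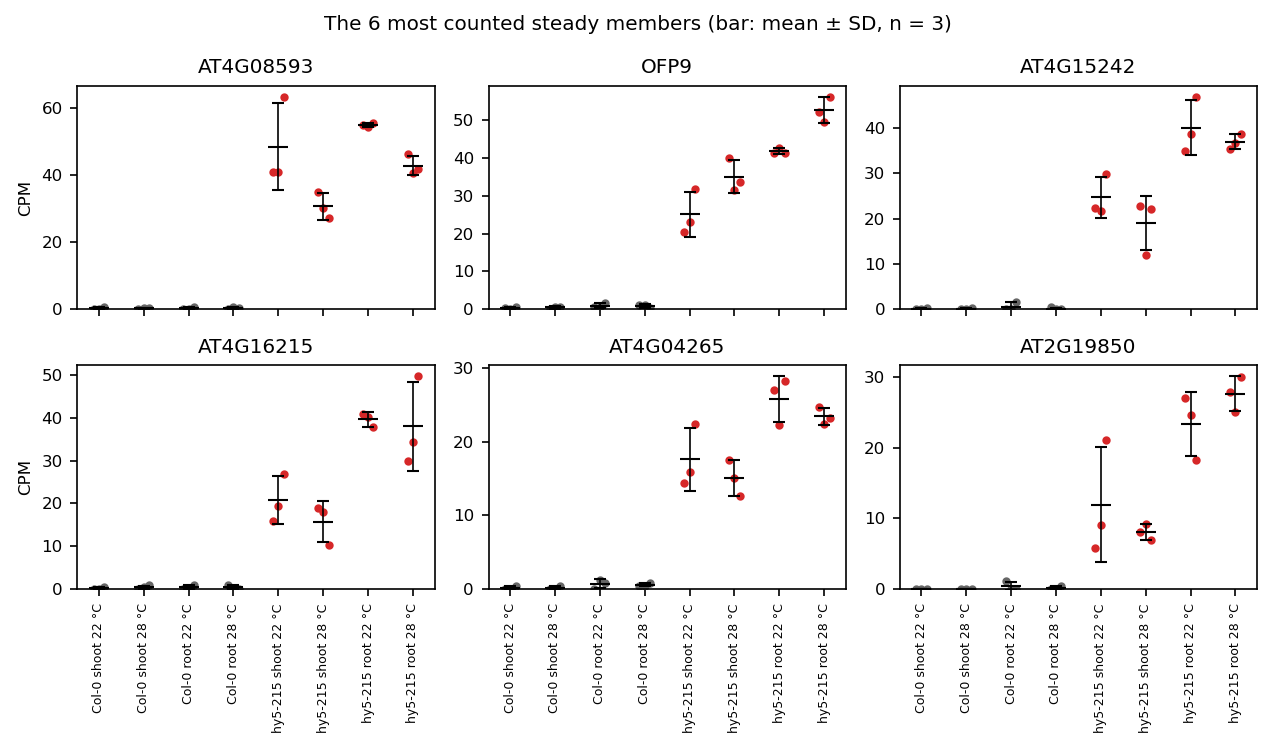
Levels of the 6 most counted steady members in the 8 groups, in CPM (y axis, linear, from 0). Points are libraries and bars the mean ± SD of 3; all Col-0 points lie next to 0, and the *hy5-215* means run from 8.01 (AT2G19850, shoot 28 °C) to 54.9 (AT4G08593, root 22 °C).

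The other 15 steady members had means of 11.5 to 42.0 counts over the mutant libraries. They were AT4G06643, AT3G14670, AT1G20400 (hypothetical protein), AT1G36020 (DEAD-box RNA helicase family, enzymes that unwind RNA), AT1G43815, AT3G25720 (reverse transcriptase related, as retroelements encode), AT1G23915, AT1G47265, AT4G18150, AT4G07965, AT4G03950 (sugar transporter family), AT4G06688, AT3G44070 (glycosyl hydrolase family 35), AT4G03156 (small GTPase-like) and AT2G05915. AT4G03950 and AT4G06688 were at 0 in all 12 Col-0 libraries and between 7 and 29 counts in every mutant library. The coefficient of variation of the CPM of the 21 genes over the 12 *hy5-215* libraries ran from 0.173 to 0.608 with a median of 0.331. For the 12 members of the second set it ran from 1.15 to 2.42, a gap that follows from how the sets were defined. Summed, the steady members held 262 ± 45.1 and 250 ± 19.1 CPM (SD, n = 3) in the mutant shoot at 22 and 28 °C and 381 ± 15.2 and 384 ± 25.1 in the mutant root. In Col-0 no library exceeded 13.2. With library totals alone, as in CPM, the median of all tested genes was also higher in the mutant root than in its shoot. That shift was 0.69 on the log2 scale at 22 °C and 0.67 at 28 °C, so these sums show no organ difference beyond the bulk of genes.

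AT2G05915 (chr2:2263816-2264265) lies wholly, over 450 bases, opposite the long non-coding RNA gene AT2G05914. AT2G05914 had 29 counts in Col-0 and 2875 in *hy5-215* and missed the rule because single Col-0 libraries had up to 7 counts; it is named because of these values. Its counts in the mutant were 239, 324 and 327 in the shoot and 217, 294 and 232 in the root at 22 °C, and 213, 267 and 192 and then 209, 197 and 164 at 28 °C. As it was picked by its difference between the genotypes, that difference is given without a test. AT2G05915 itself had 5 to 19 counts per mutant library. Whether counting used the strand is not given in the sources used here, so reads of the pair cannot be told apart.

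The positions of the members were uneven. Chromosomes 1 to 5 held 11, 9, 9, 23 and 6 of them, so chromosome 4 had 39.7% of the members and 15.1% of the 32548 identifiers that could be placed on the annotation. Of the steady members 11 of 21 were on chromosome 4 and 0 on chromosome 5. Between positions 1396002 and 10529092 of chromosome 4, the span of 17 members, lay 29.3% of the members and 5.66% of the identifiers. A span of chromosome 1, 13433919 to 17324911, held 5 members among 313 identifiers, and a span of chromosome 3, 14082640 to 15829823, held 3 among 163. These spans were drawn from the positions of the members, so no test applies.

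**Figure D3:**
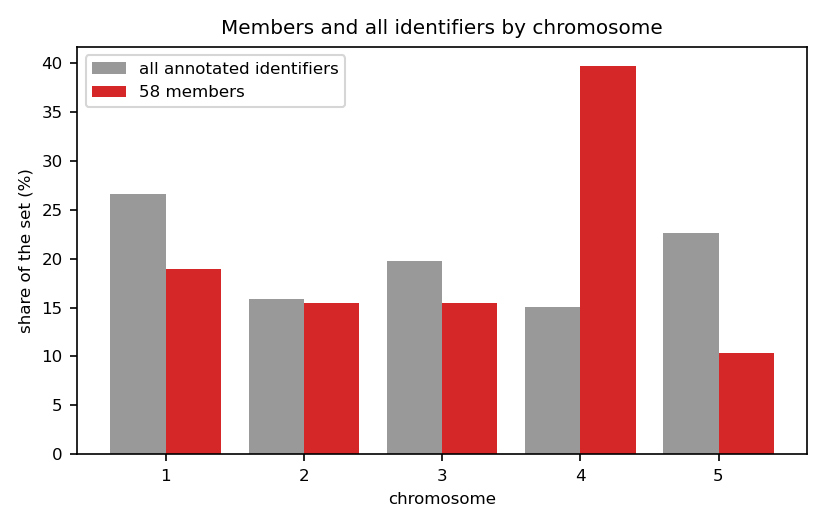
Share (y axis, %) of the 58 members (red) and of all annotated identifiers (grey) on each of the 5 nuclear chromosomes (x axis). Chromosome 4 holds 39.7% of the members and 15.1% of the identifiers; chromosome 5 holds 10.3% and 22.6%.

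Other genes of the chromosome 4 span were tested between the genotypes. Among its non-members, 2.19%, 2.14%, 7.13% and 4.9% differed between the genotypes in the shoot at 22 and 28 °C and the root at 22 and 28 °C, where 1.73%, 1.82%, 5.78% and 4.84% of all tested genes did. A call here is an adjusted p of at most 0.05 with at least a 2-fold difference. The surroundings and gene models of the sets also differed. Within 50 kb of a member, the median share of loci annotated as pseudogenes was 7.61%, against 3.03% for all identifiers, 33.3% for the steady members and 2.7% for the second set. The steady members varied widely, with quartiles of 4.65% and 58.6%, so part of them lay in the range of most identifiers (quartiles of 0% and 7.14%). The gene model was partial, lacking an annotated end, for 27 members (46.6%), including 15 of the 21 steady ones (71.4%), and for 19.9% of all identifiers. Of the members, 57 were annotated as protein-coding, and 17 (29.3%) had an uncharacterized or hypothetical product, as did 10 steady members (47.6%) and 8.99% of all identifiers.

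Members rarely lay side by side. The nearest pair was AT3G14670 and AT3G14700, 11299 bases apart on chromosome 3, and no other pair lay within 20 kb. AT3G14670, uncharacterized, had 52, 59 and 48 counts in the mutant shoot at 22 °C, 45, 54 and 19 at 28 °C, 28, 22 and 25 in the root at 22 °C and 40, 36 and 15 at 28 °C. AT3G14700, of the SART-1 family of splicing proteins, had 2, 11 and 4, then 4, 9 and 7 in the shoot and 1, 1 and 1, then 14, 4 and 3 in the root. AT3G14700 was thus at 1 count in each root library at 22 °C and at 2 or more in every other mutant library, while the 22 to 28 counts of AT3G14670 there lay within its range of 15 to 40 in the root at 28 °C. The Col-0 root at 22 °C had 2, 1 and 0 counts of AT3G14700, so in that group this member was not higher in the mutant.

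The nearest non-member on each side of a member, leaving out genes that overlap it, gave 116 neighbours, up to 91409 bases away. Most of them had too few counts to be tested between the genotypes, and most of those tested were not called. In the shoot, 1 of 45 tested neighbours was called at 22 °C (2.22%, against 1.73% of all genes) and 0 of 47 at 28 °C (against 1.82%), where 8 had an unadjusted p under 0.05 and DESeq2 also called 0. In the root, 5 of 53 were called at 22 °C (9.43%, against 5.78%) and 7 of 56 at 28 °C (12.5%, against 4.84%). All 5 genes called at 22 °C were called again at 28 °C in the same direction, so the 2 counts are largely the same genes. Most of these calls were lower in the mutant, 4 of 5 and 6 of 7, where 2.89% and 1.7% of all tested genes were called lower. The 3 smallest adjusted p-values belonged to *ABCI21*, an ABC transporter family gene, and *FLA13*, a fasciclin-like arabinogalactan protein gene, on either side of *CRA1*, and to *CSLC12*, a cellulose synthase-like gene beside AT4G07965. They differed by -4.28 ± 0.22, -2.02 ± 0.19 and -1.94 ± 0.26 (SE, log2) in the root at 28 °C, with adjusted p = 2.07e-13, 2.07e-08 and 5.04e-06 (edgeR). In that group of libraries *CRA1* itself had 0, 0 and 1 counts.

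Of a list of 24 genes of DNA methylation and gene silencing, chosen because many members lie among pseudogenes, 2 were called between the genotypes. A further gene, *IBM1*, passed the adjusted p but not the 2-fold limit in the shoot at 22 °C. It was at -0.87 ± 0.23 there (SE, log2, adjusted p = 0.00906, edgeR) and at -0.83 ± 0.25 in the shoot at 28 °C (adjusted p = 0.0508). Of the 19, 18 and 22 tested in the shoot at 22 °C, the shoot at 28 °C and the root at 22 °C, 0 were called by edgeR or DESeq2, with 3, 5 and 3 at an unadjusted p under 0.05 in edgeR, where 1.73%, 1.82% and 5.78% of all tested genes were called. In the root at 28 °C 2 of 24 were called, both lower in *hy5-215*, where 1.7% of all tested genes were called lower. They were *ROS1*, a DNA glycosylase that removes methylated cytosine, at -1.58 ± 0.34 (adjusted p = 0.00183), and *DRD1*, a chromatin remodeller of RNA-directed DNA methylation, at -1.19 ± 0.34 (adjusted p = 0.0175). The call of *DRD1* was lost without Col-0 replicate 2 or mutant replicate 2 or 3 of that group (adjusted p of 0.0839, 0.12 and 0.0516). The list medians were -0.09, 0.06, -0.1 and -0.13 on the log2 scale, beside medians within 0.01 of 0 for all tested genes.

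The second set held the 12S globulin genes *CRA1* and *CRU3*, the 2S albumin genes *SESA2* and *SESA5*, the oil body protein genes *OLEO1* and *ATS1* (a peroxygenase of the caleosin type), *TIP3;1* (an aquaporin of the storage vacuole membrane), the metallothionein genes *AtMT4a* and *AtMT4b*, *NSP2* (a nitrile specifier protein of glucosinolate breakdown), the cupin gene AT2G28490 and the glycine-rich protein gene AT5G35660.

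*CRA1* had 0, 103 and 160 counts in replicates 1, 2 and 3 of the mutant root at 22 °C and 0, 0 and 1 in the root at 28 °C. In the mutant shoot it had 8, 19 and 27 counts at 22 °C and 20, 20 and 17 at 28 °C, against at most 1 in any Col-0 library. *CRA1* was thus counted in all 6 mutant shoot libraries and in 2 root libraries at a higher level. *CRU3* had 0, 105 and 169 in the root at 22 °C, 0, 0 and 1 at 28 °C, and 0, 4 and 7 and then 4, 3 and 4 in the shoot. *OLEO1* had 0, 75 and 153 and then 6, 2 and 1 in the root and 4, 4 and 13 and then 8, 2 and 5 in the shoot. *SESA5* had 0, 84 and 141 and then 2, 6 and 2 in the root and 2, 8 and 7 and then 3, 6 and 2 in the shoot. These 3 genes were therefore low but present in most mutant shoot libraries, and highest in replicates 2 and 3 of the root at 22 °C.

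*SESA2* and *ATS1* were nearly confined to those 2 root libraries, with 49 and 67 and with 29 and 30 counts there and at most 2 in any other library. AT5G35660 differed from the rest of the set. It had 0, 58 and 95 counts in the root at 22 °C and 4, 4 and 2 at 28 °C, but 20, 36 and 42 and then 18, 24 and 18 in the shoot, so it was also plain in every shoot library. The remaining genes of the set had 13 to 47 counts in replicate 2 and 14 to 81 in replicate 3 of the root at 22 °C and at most 13 in any other mutant library. Across the 12 genes, 45.0% to 99.2% of the mutant counts came from these 2 libraries. Summed, the set held 0 to 468 CPM in the root at 22 °C, 3.9 to 5.2 in the root at 28 °C, 17.8 to 42.5 and 23.0 to 24.8 in the shoot at 22 and 28 °C, and at most 3.29 in Col-0. In such bulk samples fewer cells of a type and less RNA per cell cannot be told apart, and the part of unequal seed material in these values was not tested.

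**Figure D4:**
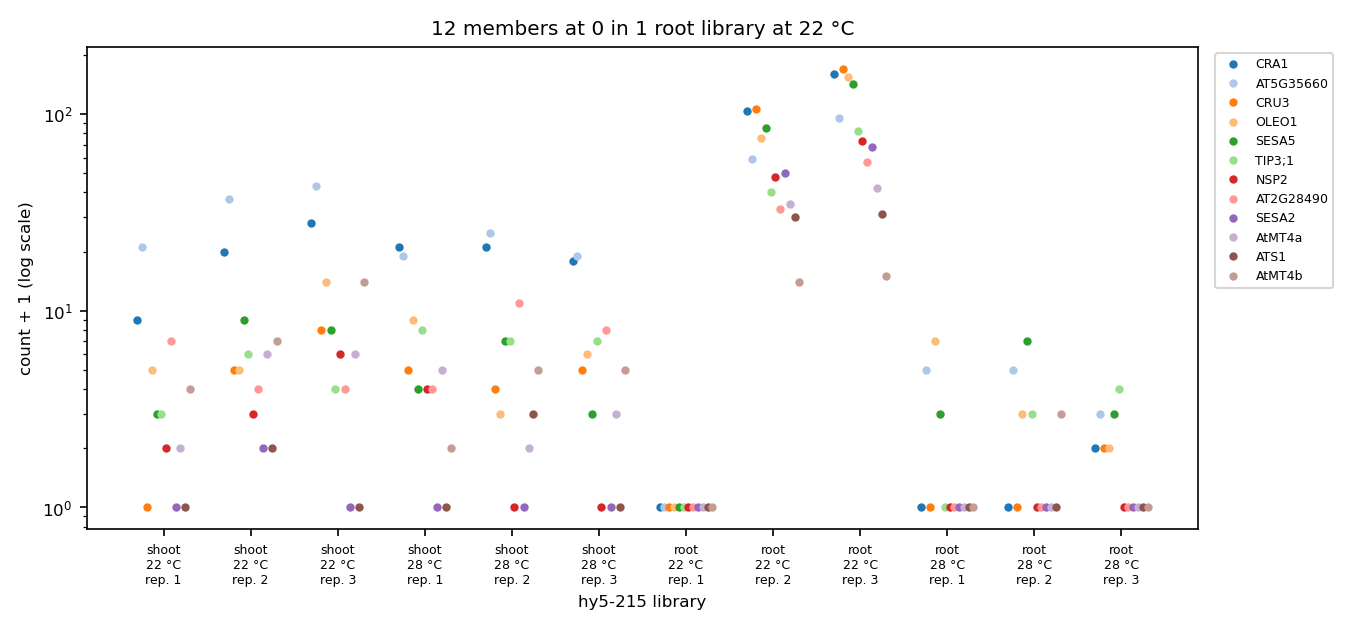
Count + 1 (y axis, log scale) of the 12 members of the second set in the 12 *hy5-215* libraries (x axis, by organ, temperature and replicate), 1 colour per gene. All 12 sit at 0 in replicate 1 of the root at 22 °C and at 13 to 105 and 14 to 169 counts in replicates 2 and 3; in the shoot only *CRA1* and AT5G35660 exceed 13 counts.

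Temperature was compared within *hy5-215*, where the rule used only the mean over all 12 libraries. A gene entered a test only if enough libraries reached about 10 counts, so genes high in 1 group alone passed because of that group, and counts over the tested members are no account of all 58. In the shoot, 22 members could be tested at 28 against 22 °C and 0 were called by edgeR, with 7 at an unadjusted p under 0.05 and 0 called by DESeq2, where 3.59% of all tested genes were called. The member with the smallest adjusted p was AT4G08593, at -0.69 ± 0.16 (SE, log2, adjusted p = 0.00366), short of a 2-fold difference. Its shoot libraries at 28 °C did not overlap those at 22 °C in CPM.

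In the root, 33 members were tested at 28 against 22 °C, and 3 were called higher and 1 lower, where 1.11% of all tested genes were called higher and 0.626% lower. All 4 passed the filter only through the group in which they were high, so their difference was part of how they came to be tested, and nothing is read from this count or from their p-values. AT1G55230, with a domain of unknown function, had 4, 4 and 6 counts at 22 °C and 24, 34 and 12 at 28 °C. It was higher by 2.1 ± 0.46 on the log2 scale (adjusted p = 0.00328), and without replicate 2 at 28 °C the adjusted p was 0.065. AT2G43865, uncharacterized, had 3, 3 and 3 counts at 22 °C and 15, 14 and 13 at 28 °C (adjusted p = 0.017). AT5G26690, of a heavy metal transport family, had 2, 5 and 4 and then 21, 16 and 8 counts and was higher by 1.82 ± 0.51 (adjusted p = 0.0274). *CYP76C4*, a cytochrome P450 gene, had 12, 22 and 10 counts at 22 °C and 8, 5 and 0 at 28 °C and was lower, at -1.90 ± 0.54 (adjusted p = 0.029). In all 4 genes the groups did not overlap, and each of these calls was lost in at least 1 of the fits that left out 1 library. For AT2G43865 this was root replicate 2 at 22 °C or any replicate at 28 °C (adjusted p up to 0.128), for AT5G26690 replicate 1 or 2 at 22 °C or 3 at 28 °C (up to 0.115) and for *CYP76C4* replicate 2 at 22 °C or any at 28 °C (up to 0.217). DESeq2 called 1 of the 4 and gave the other 3 no adjusted p. The number of members called ran from 1 to 17 when 1 library was left out, with 17 without replicate 1 of the root at 22 °C, of which 12 were the second set.

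The root was compared with the shoot of *hy5-215* at each temperature. At 22 °C 29 members were tested, of which 5 were higher in the root and 2 lower, where 17.3% of all tested genes were higher and 24.3% lower. At 28 °C 33 were tested, of which 8 were higher and 4 lower, where 17.2% and 22.7% were. In either direction 7 of 29 and 12 of 33 members were called, beside 41.6% and 39.9% of all tested genes. Of these calls 6 and 9 were of genes that passed the filter through 1 organ alone. Their difference was part of how they came to be tested, and nothing is read from their number or from their p-values below. Both organs passed it for AT3G14670 at 22 °C and for AT2G19850, AT2G43865 and AT4G07965 at 28 °C. Scaling by library totals alone moved the median of all tested genes by 0.69 and 0.67 on the log2 scale towards the root, and the share of calls that were higher in the root from 41.6% to 67.7% and from 43.1% to 68.6%. With that scaling 10 members were higher and 1 lower at 22 °C, and 10 higher and 2 lower at 28 °C. Log2 differences below are relative to the scaling that sets the bulk of genes near 0.

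**Figure D5:**
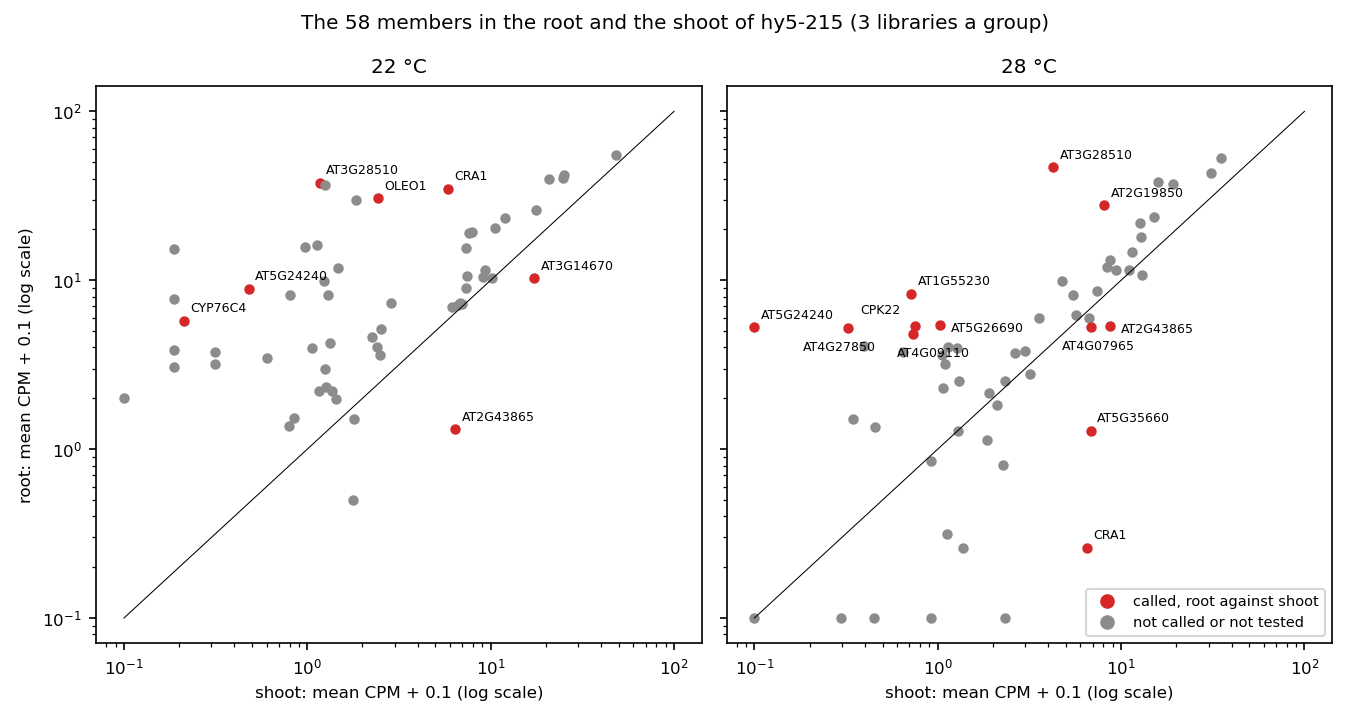
Mean CPM + 0.1 in the mutant shoot (x axis, log scale) and root (y axis, log scale) for the 58 members at 22 °C (left) and 28 °C (right), 3 libraries a group. Red points were called in the root against shoot comparison. Points on the line have the same mean CPM in both organs. With library totals alone the median of all tested genes lay above such a line, at 0.69 and 0.67 on the log2 scale. The calls are relative to that bulk of genes and not to the line. Among genes counted in every mutant library, AT3G28510 lies farthest above the line.

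AT3G28510 (chr3:10685470-10687429), a P-loop nucleoside triphosphate hydrolase, had the highest mean root count of the members called higher in the root. It had 100, 99 and 83 counts in the mutant root and 3, 4 and 3 in the shoot at 22 °C, and 149, 122 and 106 against 7, 16 and 14 at 28 °C. Every root library was above every shoot library. The difference was 4.41 ± 0.33 (SE, log2, adjusted p = 5.27e-13, edgeR) at 22 °C and 2.80 ± 0.24 (adjusted p = 1.01e-12) at 28 °C. Without root replicates 2 and 3 it was 4.68 at 22 °C, a value that rests on the single root library left there. AT5G24240, a phosphatidylinositol 4-kinase gamma-like protein, had 14, 37 and 18 counts in the root and 3, 0 and 0 in the shoot at 22 °C (adjusted p = 5.28e-06). At 28 °C it had 14, 19 and 10 in the root and 0, 0 and 0 in the shoot (adjusted p = 1.56e-06), at least 9.8-fold higher if the shoot group is set to 3 counts, or 15.5-fold with library totals alone. *CYP76C4* had 12, 22 and 10 counts in the root and 0, 0 and 1 in the shoot at 22 °C (adjusted p = 6.27e-06). It was not tested without the 2 root libraries.

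At 28 °C AT2G19850, whose counts are given above, was higher in the root by 1.10 ± 0.23 (adjusted p = 5.73e-05). AT1G55230 had 24, 34 and 12 counts in the root and 0, 5 and 1 in the shoot, a difference of 2.92 ± 0.57 (adjusted p = 2.54e-05). *CPK22*, of the calcium-dependent protein kinase family, had 21, 17 and 7 against 0, 4 and 2 (2.29 ± 0.60, adjusted p = 0.00105). The RING/U-box gene AT4G09110 had 13, 20 and 7 against 0, 0 and 5 (2.36 ± 0.68, adjusted p = 0.00291), and AT5G26690 had 21, 16 and 8 against 5, 1 and 2 (1.89 ± 0.55, adjusted p = 0.00283). Without shoot replicate 2 the adjusted p of these 2 genes was 0.051 and 0.055. AT4G27850, a glycine-rich protein gene, had 25, 12 and 7 against 0, 1 and 1 (adjusted p = 4.39e-05), but overlaps a non-coding RNA gene on the opposite strand over 1487 bases.

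Some members were called higher in the shoot. AT2G43865 had 10, 25 and 25 counts in the shoot and 3, 3 and 3 in the root at 22 °C (adjusted p = 1.42e-06), and 28, 25 and 23 against 15, 14 and 13 at 28 °C, a difference of -1.39 ± 0.33 (adjusted p = 0.000348). AT3G14670 was lower in the root at 22 °C by 1.45 ± 0.25 on the log2 scale (adjusted p = 7.67e-06). With library totals alone these differences were -0.73 at 28 °C and -0.77 at 22 °C and no longer 2-fold. AT4G07965 was called at 28 °C at -1.01 ± 0.36 (adjusted p = 0.0126) although its libraries overlapped, with 19, 28 and 14 counts in the shoot and 23, 13 and 8 in the root. It was at -0.36 (adjusted p = 0.36) with library totals alone, and without shoot replicate 2, root replicate 2 or root replicate 3 it was between -0.84 and -0.87.

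At 28 °C, a comparison without the libraries that stood apart, AT5G35660 was lower in the root by 3.08 ± 0.45 (adjusted p = 1.71e-07), with 4, 4 and 2 counts against 18, 24 and 18. *CRA1* had 0, 0 and 1 counts in the root and 20, 20 and 17 in the shoot at 28 °C (adjusted p = 1.72e-09). At 22 °C *CRA1* and *OLEO1* were called higher in the root, at 1.89 ± 0.57 and 3.04 ± 0.70 (adjusted p = 0.00488 and 0.000377), with groups that overlapped. Without root replicates 2 and 3 both were lower in the root, at 0 counts in the remaining library (fitted log2 differences of -7.22 and -5.89), and DESeq2 gave adjusted p = 0.354 and 0.142 with all libraries. Without replicate 3 alone *CRA1* was at 1.03 (adjusted p = 0.092). AT5G35660 was not called at 22 °C, at 0.26 (adjusted p = 0.653), and at -8.08 without the 2 libraries, again with 0 counts in the root library left. Whether the organ difference changed with temperature was tested for 41 members, and 2 were called, AT5G35660 and *CRA1*, where 3.71% of all tested genes were called. Both genes were too low in the root at 28 °C to pass the filter there and were tested because of other groups. Nothing is therefore read from this count or from their p-values. Without the 2 libraries neither gene was called (adjusted p = 0.22 and 0.863).

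The ends of 13 members, the last 300 bases of the transcript where 3′ tags come from, matched another place in the genome at 95% or more over at least 100 bases, and their counts are uncertain for that reason. Besides the *OFP9* family they included AT4G03156, which matched the member AT4G08190 at 95.9%. AT4G03156 had 7, 11 and 8 and then 8, 25 and 10 counts in the mutant shoot and 4, 35 and 19 and then 35, 27 and 19 in the root. AT4G08190, of the P-loop hydrolase family, had 9, 3 and 8 and then 7, 12 and 7 in the shoot and 3, 17 and 11 and then 13, 8 and 9 in the root. AT1G27565 and AT1G42680 matched AT1G52905 at 98.0% over 300 bases and AT1G50360 at 99.2% over 126 bases, genes with 340 and 365 and with 450 and 485 counts in Col-0 and *hy5-215*. The other 45 members had no such copy, and 22 had no match of 100 bases. No member overlapped another gene on its own strand, and 9 overlapped one on the opposite strand.

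Around the thresholds, 5 members had the lowest mean, 5 counts, namely *AtMT4b*, *CYP76C4*, AT3G43290, AT3G54530 and AT4G03570, and the nearest genes outside were AT1G55390 at 4.92, AT1G05510 at 4.83 and AT3G12900 at 4.5. *OFP9*, AT1G36020 and AT5G35660 were inside with 3 counts in a Col-0 library and means of 107, 33.2 and 26.8 in the mutant. Of 15 genes left out by a single count, with a Col-0 maximum of 4, AT4G37900, AT1G24600 and *ALD1* had mutant means of 7.58, 7.92 and 12.2.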

How the data were processed

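Gene counts of 3′Tag-Seq libraries were deposited by the authors as whole-number raw counts, in 4 tables, 1 per genotype and organ, each holding both temperatures. They were made with FastQC, HISAT2 and HTSeq on TAIR10, per the labels. Tool versions, strand setting, duplicates and reads with several matches are not given in the sources used here. All columns were matched to samples by title or description.

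Values in CPM are counts scaled to a library total of 1000000. Tests used edgeR 4.0.16 (R 4.3.3) with TMM scaling, filterByExpr (minimum count 10, total 15), quasi-likelihood F-tests on the libraries of each comparison and Benjamini-Hochberg adjustment over all tested genes. A call is an adjusted p of at most 0.05 and 2-fold, or the adjusted p alone for the interaction. The SE is the log2 difference divided by the square root of F. The fits were tested on simulated data. Alternatives were DESeq2 1.42.0, other filters, library totals alone, a joint fit, a replicate block, leaving out each library and other thresholds of the rule. Leaving out both root libraries was chosen after seeing the data, and the 1 library left is then assumed to vary like the others. Ends were searched with blastn 2.17.0 against TAIR10.1. The annotation matched 32548 identifiers, including all 58 members.

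The members, gene lists and tests were chosen with earlier results of these data known. Named genes are the 25 members with the highest mean count, those within 20 kb of another, 3 on each side of each threshold, called members whose groups do not overlap, the 3 neighbours with the smallest adjusted p, *HY5* and called silencing genes; other genes were named after their values were seen.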

Additional observations from a re-analysis of the deposited data

Results flagged for a closer look

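Among the members, 2 genes were called by the edgeR test of the organ by temperature interaction in *hy5-215*, adjusted over 18160 genes. In the root against shoot comparison at 28 °C both had passed the filter on low counts through the shoot alone. Their difference was part of how they came to be tested, and nothing is read from these calls or their p-values. For AT5G35660 the root against shoot difference was lower at 28 °C than at 22 °C by 3.32 ± 0.87 (SE, log2), an interaction of -3.32 (adjusted p = 0.0173). For *CRA1* the interaction was -7.71 ± 1.33 (adjusted p = 0.000137), a fitted value that rests on a root group at 28 °C with at most 1 count per library. Both genes had 0 counts in replicate 1 of the root at 22 °C. Without replicates 2 and 3 of that group, which leaves it 1 library, the interactions were 5.15 (adjusted p = 0.22) and 1.54 (adjusted p = 0.863). For AT5G35660, leaving out root replicate 3 at 22 °C, shoot replicate 2 at 28 °C or any root replicate at 28 °C gave adjusted p between 0.052 and 0.086, and DESeq2 gave 0.335.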

How the results depend on the processing

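The number of genes meeting the rule was 32 with at most 1 count and 95 with at most 5 counts per Col-0 library, 104 with a mean of at least 3 and 31 with a mean of at least 10 in *hy5-215*, and 37 with scaled counts. It ran from 49 to 66 when 1 library was left out. The number of members called in the shoot at 28 against 22 °C was 1 without a filter and 1 in the joint fit of the 12 *hy5-215* libraries (0 to 1 without 1 library). In the root at 28 against 22 °C it was 1 with DESeq2, 19 without a filter, 13 with a mean of at least 10 counts, 9 in the joint fit and 2 without root replicates 2 and 3 at 22 °C (1 to 17). For the root against the shoot at 22 °C it was 24 without a filter, 16 with a mean of at least 10, 11 with library totals alone and 14 in the joint fit (7 to 19), and at 28 °C 6 with a mean of at least 10 (9 to 14). For the interaction it was 1 with DESeq2, 10 without a filter, 5 with a mean of at least 10 and 1 without the 2 root libraries (1 to 10). Of the 19 calls without a filter, 12 were the members at 0 in root replicate 1, and the cause of the other shifts was not tested. Without the 2 root libraries, 4 of the single-gene differences called with all libraries reversed: *OLEO1* (-5.89) and *CRA1* (-7.22) in the root against the shoot at 22 °C, and AT5G35660 (5.15) and *CRA1* (1.54) in the interaction. Of the other alternatives for called single genes 418 kept direction and call and 40 lost the call; genes not called with all libraries are not in these counts.

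The number of neighbours called was, in the shoot at 22 °C, 0 with DESeq2 and 2 with library totals alone (0 to 2 without 1 library), in the shoot at 28 °C 2 without a filter (0 to 1), in the root at 22 °C 3 without the 2 root libraries (4 to 5), and in the root at 28 °C 5 to 9 without 1 library. The number of silencing genes called was 0 to 1, 0, 0 to 1 and 1 to 2 in the same 4 comparisons when 1 library was left out. With a replicate block it was 2 and 1 in the shoot at 22 and 28 °C. The replicate numbers did not pair the libraries: deviations of same-numbered libraries correlated between -0.0408 and 0.18, in no comparison above 0.1 for all 3 numbers, and the block moved no other count of calls by over 1.5 times. At this depth 36 and 25 of the 58 members fell under the filter on low counts and were not tested for temperature in the shoot and root, and 29 and 25 for the organ at 22 and 28 °C.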
